A study of Mus musculus with 4 samples.

Results

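The expression of genes for glucose uptake and glucose phosphorylation was followed in islet cells of mice without the ERAD adaptor SEL1L in beta cells. The 5 genes, Slc2a2, Slc2a1, G6pc2, Hk1 and Hk2, were chosen by name, and each was found among the 19074 genes of every count table. Dispersed islet cells of C57BL/6 mice went through a droplet-based 3′ single-cell assay (10x Genomics), which tags RNA molecules with unique molecular identifiers (UMIs) so that copies are counted once. The series has 2 libraries of the Sel1L knockout, named Sel1LIns1 after Cre recombinase driven from the insulin gene Ins1, and 2 of the wild type, which carries the floxed Sel1L alleles without Cre. All 4 libraries thus share the floxed alleles, and no library had Cre with intact Sel1L, so that the deletion and Cre itself cannot be told apart. The mice were 7 weeks old by the sample labels, but 5 weeks by the text of the series. Islets recovered overnight in medium with 11 mM glucose, per the labels' RPMI entry, and were dispersed with trypsin for 15 minutes. The labels do not say whether the libraries of a genotype are separate animals, so the tests measure differences against the spread between libraries, which may be technical.

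Glucose enters the mouse beta cell through GLUT2, the low-affinity carrier encoded by Slc2a2, and is then phosphorylated to glucose 6-phosphate. GLUT1 (Slc2a1) is the high-affinity carrier of endothelium and most proliferating cells, and hexokinases 1 and 2 (Hk1, Hk2) are high-affinity enzymes that glucose 6-phosphate inhibits and that mature beta cells keep very low. G6pc2 encodes the islet glucose-6-phosphatase of the endoplasmic reticulum, which turns glucose 6-phosphate back into glucose.

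Cells were classed by the share of their UMIs from hormone genes: beta cells had at least 10% insulin (Ins1 and Ins2), alpha cells at least 3% Gcg and delta cells at least 3% Sst, both with under 5% insulin. After removal of doublets there were 2402 and 1373 knockout and 3538 and 3473 wild type beta cells, 759 and 328 knockout and 1111 and 938 wild type alpha cells, and 307 and 231 knockout and 459 and 530 wild type delta cells. None of the 5 genes takes part in these rules. Libraries held 99156230 to 228515309 UMIs, and pairs of libraries shared 1 to 9 cell barcodes. Insulin took 41.0% and 44.6% of the UMIs of knockout beta cells, against 67.7% and 68.4% in wild type beta cells, and mitochondrial genes 3.70% and 3.62% against 1.84% and 1.79%. The 10 beta cell markers and the 8 alpha cell markers were all detected in their class. Near the 10% limit, 86 and 31 knockout and 2 and 4 wild type beta cells had 10 to 15% insulin, and 74 and 24 knockout and 11 and 5 wild type cells just outside the class had 5 to 10%. Knockout cells just inside the limit had 24.7 and 18.7 Slc2a2 UMIs in each 1000000 non-insulin UMIs, and those just outside 24.3 and 22.0. Sel1l itself gave 43.6 and 44.1 CPM (UMIs in each 1000000 UMIs) in knockout and 33.8 and 32.1 CPM in wild type beta cells, and relative to the median gene it was lower in knockout at a log2 change of -0.50 (SE 0.0602, edgeR adjusted p = 0.00115); which exons are deleted was not used here, and a 3′ count outside them does not check the deletion.

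Because insulin fills less of a knockout beta cell's UMIs, the other genes together take up more of the CPM scale, and the scale has to be named with each value. Changes below are relative to the median gene (edgeR with TMM scaling) unless another scale is named. When beta cell sums were scaled by total UMIs or by cell number instead, the median gene itself rose by 0.92 on the log2 scale in knockout beta cells, and 97.7% of called genes were higher by total UMIs, against 49.0% relative to the median gene.

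**Figure D1:**
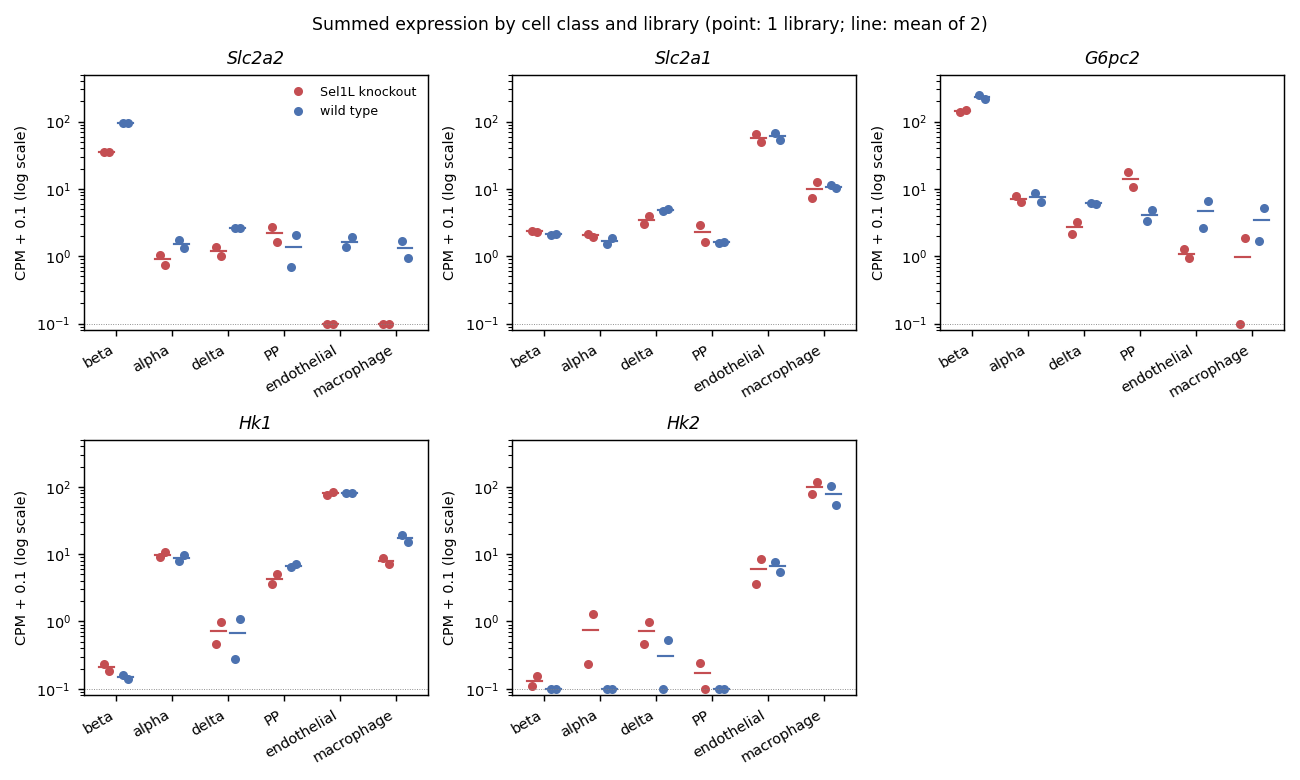
CPM plus 0.1 on a log axis for the 5 genes, by cell class and library; points are single libraries, lines the mean of 2, red knockout and blue wild type, and the dotted line marks 0. Slc2a2 and G6pc2 peak in beta cells, where all knockout libraries lie below all wild type libraries, whereas Slc2a1 and Hk1 peak in endothelial cells and Hk2 in macrophages.

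The carrier Slc2a2 lost most of its transcript in knockout beta cells. Its summed level was 35.7 and 35.0 CPM in knockout libraries and 94.2 and 96.7 CPM in wild type libraries, or 35.4 ± 0.511 CPM in knockout and 95.4 ± 1.75 CPM in wild type (SD, n = 2 each). The genotypes did not overlap, and their distance was far wider than that between libraries of a genotype. Per cell this was 1.66 and 1.88 UMIs in knockout and 4.47 and 5.00 UMIs in wild type. Relative to the median gene Slc2a2 fell by 2.34 on the log2 scale (SE 0.0745, edgeR adjusted p = 2.08e-05), 5.08-fold lower in knockout. It also fell by total UMIs, at a log2 change of -1.43, and per cell, at -1.42, both past the threshold of 0.05 in edgeR. Slc2a2 (ENSMUSG00000027690) lies on chromosome 3 at 28697903 to 28731359 (GRCm38, plus strand, 11 exons), and the antisense gene 1700112D23Rik overlaps its last exon with 19 and 14 UMIs in knockout and 58 and 39 UMIs in wild type beta cells. The setting by which the deposited counts treated strand is not given in the sources used here, so reads of these overlapping genes are uncertain, although the antisense counts are small beside the 3979 and 2575 knockout and 15823 and 17356 wild type Slc2a2 UMIs.

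G6pc2, whose enzyme removes the phosphate from glucose 6-phosphate, fell as well. Knockout beta cells had 136 and 149 CPM and wild type beta cells 250 and 219 CPM, which is 6.32 and 7.95 UMIs per cell in knockout and 11.9 and 11.3 UMIs per cell in wild type. Relative to the median gene it fell by 1.63 (SE 0.0888, edgeR adjusted p = 9.54e-05), 3.09-fold lower in knockout. The log2 change was -0.72 by total UMIs and -0.70 per cell, also past the threshold. Relative to insulin UMIs, a scale that was not tested, the genotypes overlapped for G6pc2 in beta cells. Slc2a2 was lower in both knockout libraries on that scale. G6pc2 (ENSMUSG00000005232) is at 69211073 to 69227841 on chromosome 2 (GRCm38, plus strand, 5 exons).

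Slc2a1 showed how much the scale matters for a weakly expressed gene. It had 257 and 161 UMIs in all knockout and 336 and 370 UMIs in all wild type beta cells, or 2.31 and 2.19 CPM in knockout and 2.0 and 2.06 CPM in wild type. Relative to the median gene it was lower in knockout, with a log2 change of -0.76 (SE 0.118, edgeR adjusted p = 0.00288), but the sign turned to 0.15 by total UMIs and per cell and neither passed the threshold (edgeR adjusted p = 0.331 and 0.445). Among 1000000 UMIs that are not insulin it had 3.91 and 3.95 in knockout and 6.19 and 6.51 in wild type. The balance of the carriers does not depend on the scale: there were 6.46 and 6.25 Slc2a1 UMIs per 100 Slc2a2 UMIs in knockout beta cells and 2.12 and 2.13 in wild type beta cells.

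The hexokinases stayed at the edge of detection in beta cells of both genotypes. Hk1 gave 15 and 6 UMIs in knockout and 10 and 7 UMIs in wild type beta cells, and its change did not pass the threshold (log2 0.27, SE 0.490, edgeR adjusted p = 0.683). Hk2 gave 1 and 4 UMIs in knockout beta cells and 0 and 0 UMIs in wild type beta cells, which allows up to 0.0179 and 0.0167 CPM there at 3 counts, counting error only, and was too low to be tested. Of the 4 members tested in beta cells, 3 were called, each lower, beside 41.7% of all 14866 genes tested, 20.4% higher and 21.2% lower. In 0.416% and 0.437% of knockout beta cells an Hk1 UMI was found, against 0.283% and 0.202% of wild type beta cells.

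Set against each other within a library, which no scaling touches, the members kept different proportions in the genotypes. There were 382 and 424 G6pc2 UMIs per 100 Slc2a2 UMIs in knockout beta cells and 266 and 226 in wild type beta cells, so that Slc2a2 was reduced more than G6pc2 in both knockout libraries; this ratio was chosen after the values were seen and was not tested.

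**Figure D2:**
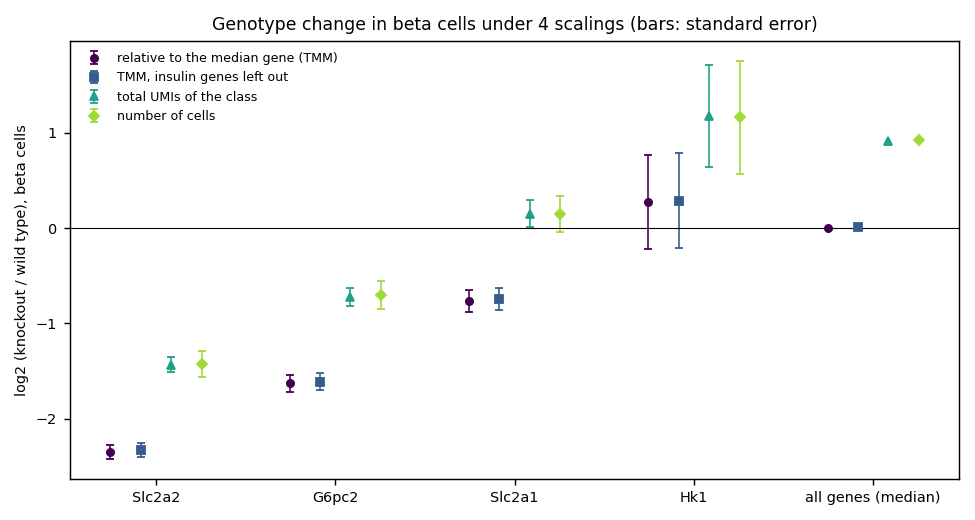
Log2 change of knockout over wild type in beta cells for 4 members and the median of all genes under 4 scalings, with standard errors; the median gene has no error bar. Slc2a2 and G6pc2 are below 0 on each of the 4 scales, while Slc2a1 is at -0.76 relative to the median gene and at 0.15 by total UMIs.

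The loss of Slc2a2 was seen across the beta cells. A beta cell held a median of 1 and 1 Slc2a2 UMIs in knockout libraries and 3 and 4 UMIs in wild type libraries, and the upper quartile was 2 and 2 in knockout and 6 and 7 in wild type. No Slc2a2 UMI was found in 43.4% and 36.9% of knockout and 15.6% and 15.1% of wild type beta cells. For G6pc2 the median was 5 and 7 UMIs in knockout and 11 and 10 UMIs in wild type, and 5.45% and 3.35% of knockout and 2.71% and 2.62% of wild type beta cells had none. With each cell thinned to 2000 UMIs, Slc2a2 was found in 6.32% and 6.51% of knockout and 17.6% and 17.7% of wild type beta cells, with 95% binomial intervals (Clopper-Pearson) from 5.26% to 7.95% over the knockout and from 16.4% to 19.0% over the wild type libraries. Thinning left out 11 and 5 knockout and 1 and 1 wild type beta cells. Endothelial cells, which should lack Slc2a2, gave 0% and 0% in knockout and 0.621% and 0% in wild type, at median depths of 10461 and 9798 UMIs in knockout and 6866 and 6675 UMIs in wild type; beta cells had 43627 and 51347 UMIs in knockout and 46793 and 49757 UMIs in wild type. At 2000 UMIs G6pc2 was found in 22.8% and 25.7% of knockout and 38.3% and 32.7% of wild type beta cells.

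**Figure D3:**
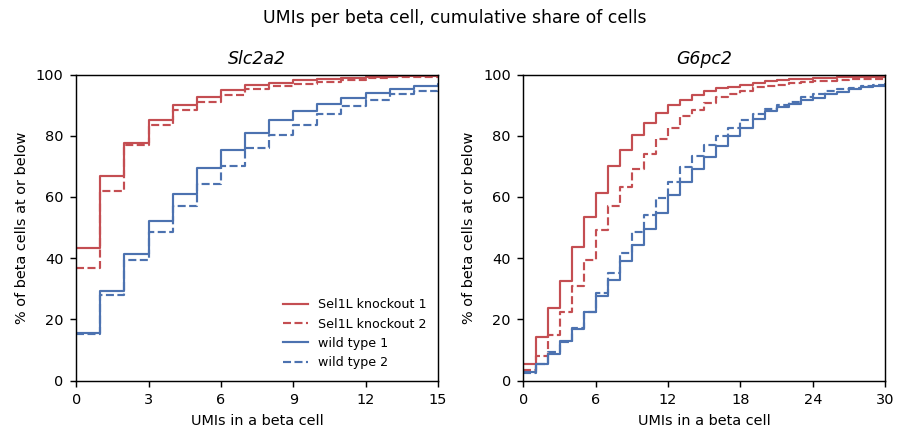
Cumulative share of beta cells with at most a given number of UMIs of Slc2a2 or G6pc2, for each library. The knockout curves of Slc2a2 and G6pc2 lie above the wild type curves over the plotted range, with 43.4% and 36.9% of knockout and 15.6% and 15.1% of wild type cells at 0 Slc2a2 UMIs.

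Knockout beta cells held less insulin, so the genes were also compared between cells of a matched insulin share. In cells with 50 to 70% insulin, Slc2a2 had 102 and 96.8 UMIs in each 1000000 non-insulin UMIs in knockout and 263 and 269 in wild type. G6pc2 had 326 and 341 in knockout and 754 and 680 in wild type, and Slc2a1 had 3.60 and 4.05 in knockout and 6.20 and 7.05 in wild type. These 3 genes were thus separated by genotype in this bin, which held 449 and 382 knockout and 2072 and 2055 wild type cells. In the narrower bin of 55 to 70%, Slc2a2 was at 121 and 116 in knockout and 265 and 271 in wild type. Insulin share and Slc2a2 moved together within the knockout, from 29.3 and 34.2 in cells with 10 to 30% insulin through 59.8 and 54.4 at 30 to 50% to the values above. Over 3 bins the mean log2 difference was -1.09 for Slc2a2, -0.62 for G6pc2 and -0.46 for Slc2a1. The genotypes did not overlap in 2 of the 3 bins for Slc2a2 and Slc2a1 and in 1 for G6pc2. The share of all genes without overlap in these bins was not counted. At 30 to 50% insulin G6pc2 had 226 and 255 in knockout and 537 and 199 in wild type. At 10 to 30% it had 167 and 174 in knockout and 509 and 86.9 in wild type. Slc2a1 rested on 12 and 5 wild type UMIs at 30 to 50% and on 2 and 1 at 10 to 30%. Wild type cells were few below 50%, and the 39 and 20 wild type cells with 10 to 30% insulin gave 152 and 17.8 for Slc2a2, on both sides of the knockout libraries; the 39 had a median of 12695 UMIs, against 44620 in the 50 to 70% bin of that library. Only 4 and 7 knockout cells lay above 70% insulin, where wild type cells reached 360 and 385 for Slc2a2.

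**Figure D4:**
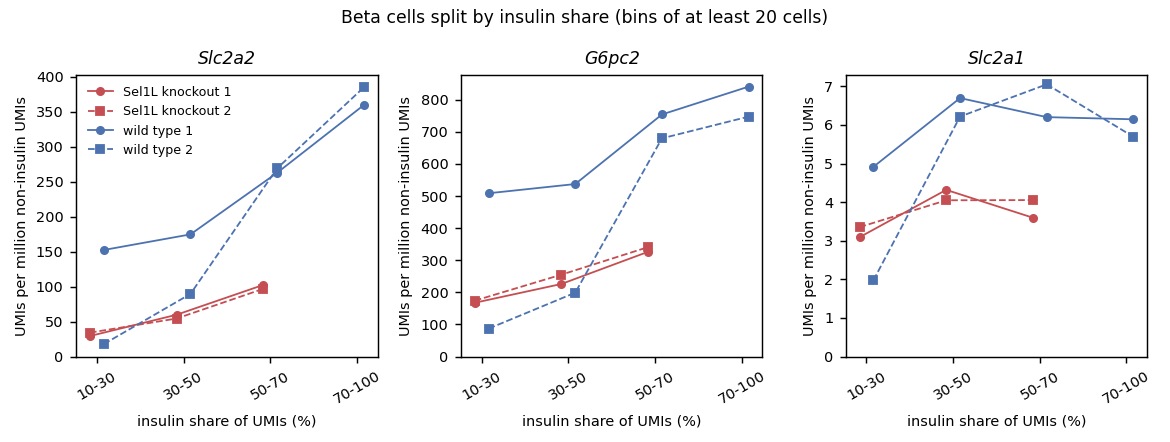
UMIs in each 1000000 non-insulin UMIs in beta cells split by the insulin share of the cell, for each library; bins with under 20 cells are left out. At 50 to 70% insulin knockout libraries have 102 and 96.8 for Slc2a2 and wild type libraries 263 and 269.

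Within each library Slc2a2 and G6pc2 were higher in beta cells that carried mature beta cell transcripts, which did not hold for Slc2a1 in every library. Cells were thinned to 5000 non-insulin UMIs and split by whether a UMI of Mafa, a transcription factor of mature beta cells, was left; that was so in 437 of 2371 and 314 of 1342 knockout and 2686 of 3432 and 2649 of 3422 wild type cells. Knockout cells with Mafa had 0.474 and 0.484 Slc2a2 UMIs, and knockout cells without it 0.263 and 0.269. Wild type cells with Mafa had 1.67 and 1.78, and wild type cells without it 0.945 and 1.07. Knockout cells with Mafa had fewer Slc2a2 UMIs than wild type cells without it. A split by detection does not match the level of Mafa between the genotypes. G6pc2 had 1.55 and 1.74 UMIs in knockout cells with Mafa and 1.03 and 1.29 in those without it, and 4.16 and 3.67 in wild type cells with Mafa and 2.76 and 2.52 in those without it. A split by Ucn3, the urocortin of mature beta cells, gave the same order, with 0.368 and 0.447 Slc2a2 UMIs in knockout cells with Ucn3 and 0.285 and 0.280 without it, and 1.73 and 1.82 in wild type cells with Ucn3 and 1.04 and 1.24 without it. A split by Aldh1a3 was also made, with 100 and 53 knockout cells that had it and only 6 and 11 wild type cells. Knockout cells with Aldh1a3 had 0.300 and 0.396 Slc2a2 UMIs, and those without it 0.302 and 0.317. For G6pc2 these were 1.28 and 1.51 with Aldh1a3 and 1.12 and 1.39 without it. These splits share their cells and carry no test.

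RefSeq promoter windows (build GRCm38.p6, 250 bases before to 50 bases after the annotated start) are shown for Slc2a2, G6pc2 and Slc2a1. The first 2 of these fell on each tested scale, and the sign of Slc2a1 depends on the scale. Capitals mark matches on either strand to TAAT, the core of homeodomain sites such as that of PDX1, to CANNTG, the E-box, to TGCTGAC, the core of the site that MAFA and related factors bind, to ACGTG and GCGTG, cores of the hypoxia response element, and to TATAAA.
Slc2a2, chr3:28697653-28697952, plus strand: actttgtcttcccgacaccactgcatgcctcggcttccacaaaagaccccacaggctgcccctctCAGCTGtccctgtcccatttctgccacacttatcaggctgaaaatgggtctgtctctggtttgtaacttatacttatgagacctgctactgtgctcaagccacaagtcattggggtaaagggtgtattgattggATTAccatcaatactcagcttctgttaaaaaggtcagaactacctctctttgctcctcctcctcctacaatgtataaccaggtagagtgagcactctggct
G6pc2, first start, chr2:69210823-69211122, plus strand: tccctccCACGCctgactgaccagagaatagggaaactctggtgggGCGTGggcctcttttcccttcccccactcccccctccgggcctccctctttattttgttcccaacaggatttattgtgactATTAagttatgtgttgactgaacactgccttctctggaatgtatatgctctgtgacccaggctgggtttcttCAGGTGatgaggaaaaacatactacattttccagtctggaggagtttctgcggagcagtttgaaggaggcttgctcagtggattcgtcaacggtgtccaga
G6pc2, second start, chr2:69219699-69219998, plus strand: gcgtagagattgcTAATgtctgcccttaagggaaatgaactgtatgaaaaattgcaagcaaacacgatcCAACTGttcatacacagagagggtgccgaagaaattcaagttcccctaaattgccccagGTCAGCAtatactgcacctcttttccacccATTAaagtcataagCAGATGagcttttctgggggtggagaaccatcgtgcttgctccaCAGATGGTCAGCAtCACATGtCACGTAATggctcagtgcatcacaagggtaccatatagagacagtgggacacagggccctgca
Slc2a1, chr4:119108495-119108794, plus strand: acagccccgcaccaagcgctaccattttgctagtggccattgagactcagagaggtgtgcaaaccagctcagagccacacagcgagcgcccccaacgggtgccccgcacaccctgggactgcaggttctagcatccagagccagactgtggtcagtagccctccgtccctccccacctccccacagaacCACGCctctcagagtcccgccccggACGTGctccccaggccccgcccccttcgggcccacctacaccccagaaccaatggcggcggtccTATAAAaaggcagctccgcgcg
The Slc2a2 window and the first G6pc2 window each hold 1 TAAT match, 51 and 123 bases before the start, and 1 E-box, 185 and 51 bases before it, whereas Slc2a1 holds neither. TAAT occurs in 58.0% and CANNTG in 72.3% of the 32851 windows, so these letters are common. TGCTGAC occurs in 4.67% of windows; of the 4 printed it is found in the window of the second, downstream G6pc2 start alone, 122 and 28 bases before it. RefSeq lists both G6pc2 starts, and which of them the counted transcripts used was not tested. Slc2a1 holds 1 ACGTG, 36 bases before the start, and 1 GCGTG, 61 bases before it, beside 19.6% and 32.4% of all windows. The first G6pc2 window holds 2 GCGTG matches, 243 and 204 bases before its start. The windows also differ in base composition, with 2 CpG dinucleotides in Slc2a2, 6 in the first G6pc2 window and 18 in Slc2a1, against a median of 7. A match describes letters and not binding. The Hk1 and Hk2 windows were searched and are not printed.

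Among 12 listed factors known to act on the Slc2a2 or G6pc2 promoter, 11 were tested in beta cells, of which 4 fell, 2 rose and 5 did not pass the test, where 21.2% of all genes fell and 20.4% rose; their median log2 change was -0.21, beside 0.00 over all genes. Mafa had 32.5 and 40.7 CPM in knockout and 204 and 185 CPM in wild type, 9.98-fold lower in knockout relative to the median gene (log2 -3.32, SE 0.131, edgeR adjusted p = 3.22e-05), and it fell by total UMIs as well, at -2.41. Pdx1, the homeodomain factor of beta and delta cells, had 54.9 and 47.9 CPM in knockout and 58.5 and 57.1 CPM in wild type. Nkx2-2, another homeodomain factor, had 47.7 and 47.0 CPM in knockout and 52.1 and 46.5 CPM in wild type. Both fell only relative to the median gene, at -1.08 and -0.97, and by total UMIs were at -0.17 and -0.06, not past the threshold. Of this list 1 fell and 7 rose by total UMIs, a scale on which 85.5% of all genes rose and 2.02% fell. Like every list here, it was chosen with earlier results of these data known.

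Among 15 other glucose carriers, 13 were matched by symbol and 10 tested in beta cells. Of these 3 rose, 2 fell and 5 did not pass, with a median of 0.49, where 20.4% of all genes rose and 21.2% fell. Slc2a6, a lysosomal carrier, had 2.87 and 3.47 CPM in knockout and 0.482 and 0.457 CPM in wild type (log2 1.84, SE 0.171, edgeR adjusted p = 4.78e-04). Slc2a13, a proton and myo-inositol carrier, had 2.83 and 2.68 CPM in knockout and 1.17 and 0.858 CPM in wild type, at a change of 0.54. Slc5a1, the intestinal sodium-glucose carrier, fell on few counts, with 11 and 2 UMIs in knockout and 30 and 26 UMIs in wild type. By total UMIs 8 of these carriers rose and 1 fell, where 85.5% of all genes rose and 2.02% fell. None of the tested ones was called in alpha cells (9 tested) or delta cells (7 tested) by edgeR.

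Of 8 other phosphorylating enzymes and regulators, 5 were tested in beta cells: 1 rose, 2 fell and 2 did not pass, with a median of 0.18. Of all genes 20.4% rose and 21.2% fell. Pfkfb3, a kinase that makes the glycolytic activator fructose 2,6-bisphosphate, had 3.91 and 3.28 CPM in knockout and 0.768 and 0.713 CPM in wild type (log2 1.37, edgeR adjusted p = 6.08e-04). Pfkfb2, another isozyme of this kinase, had 8.41 and 8.31 CPM in knockout and 8.79 and 8.44 CPM in wild type, lower relative to the median gene at -0.96, and at -0.04 by total UMIs, where it did not pass the threshold. Adpgk, which phosphorylates glucose with ADP, was at -0.49 relative to the median gene and turned to 0.42 by total UMIs.

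Enzymes and carriers of glucose 6-phosphate, 12 of 13 matched and 10 tested, had 4 higher, 1 lower and 5 not past the test in beta cells. Of all genes 20.4% were higher and 21.2% lower. H6pd, the glucose-6-phosphate dehydrogenase inside the endoplasmic reticulum, had 9.66 and 9.86 CPM in knockout and 3.49 and 3.15 CPM in wild type (log2 0.65, SE 0.0808, edgeR adjusted p = 0.00131). Slc37a1, a sugar-phosphate exchanger of the same compartment, had 25.3 and 24.3 CPM in knockout and 8.94 and 8.66 CPM in wild type, at 0.58. Gfpt1, the entry enzyme of the hexosamine pathway, had 164.5 and 159 CPM in knockout and 68.7 and 63.3 CPM in wild type, at 0.38. Each of the 10 was higher in knockout by total UMIs, where 85.5% of all genes were.

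The 20 targets of hypoxia-inducible factor, a group to which Slc2a1 and Hk2 are also known to belong, did not move as one. In beta cells 18 were tested, 4 rose, 6 fell and 8 did not pass, with a median of -0.17. Of all genes 20.4% rose and 21.2% fell. Pdk1, which holds pyruvate back from the mitochondria, had 17.9 and 15.4 CPM in knockout and 4.67 and 4.15 CPM in wild type (log2 1.01, SE 0.0822, edgeR adjusted p = 3.07e-04). Adm, adrenomedullin, had 53 and 42 UMIs in knockout and 3 and 2 UMIs in wild type. Aldoa, a glycolytic aldolase, had 184 and 167 CPM in knockout and 164 and 164 CPM in wild type, lower relative to the median gene at -0.82 and at 0.10 by total UMIs. By total UMIs 15 of the list rose and none fell, close to the 85.5% of all genes that rose on that scale. In alpha cells, the same lists had 1 of 4 phosphorylating enzymes higher (Pfkfb3, log2 1.30), 2 of 10 glucose 6-phosphate genes higher (H6pd at 0.80 and Slc37a1 at 0.39), 2 of 15 hypoxia targets higher and 4 lower, and 1 of 11 promoter factors lower (Mafa at -3.23), beside 17.7% of all genes called in either direction. Mafa in alpha cells rested on 3 and 5 knockout and 47 and 40 wild type UMIs, at most 2.19 CPM. Insulin took 0.175% and 0.169% of alpha cell UMIs in knockout and 0.497% and 0.588% in wild type. Whether these Mafa UMIs came from beta cell RNA was not tested. In delta cells 2 of 15 hypoxia targets were lower, beside 6.68% of all genes called, and edgeR called none of the other lists' genes.

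Outside beta cells the members had other homes. Slc2a2 in alpha cells was 0.946 and 0.642 CPM in knockout and 1.63 and 1.22 CPM in wild type, on 21 and 6 knockout and 35 and 23 wild type UMIs. In endothelial cells it was at 0 and 0 in knockout, which allows up to 1.16 and 1.24 CPM at 3 counts, and at 1.26 and 1.80 CPM in wild type. In delta cells it was 1.29 and 0.898 CPM in knockout, on 7 and 4 UMIs, and 2.52 and 2.54 CPM in wild type, on 14 and 18 UMIs. These counts are few and their Poisson intervals overlap those of endothelial cells, so that alpha and delta levels could not be told apart from background. The folds that follow count such UMIs in alpha and delta cells as expression and therefore carry that limit. In wild type libraries the joint fit placed Slc2a2 in beta cells 125-fold above alpha and 98.2-fold above delta cells, and in knockout libraries 48.6-fold and 48.8-fold. G6pc2 was 59.1-fold above alpha and 101-fold above delta cells in wild type, and 22.7-fold and 86.4-fold in knockout. Each of these 8 contrasts passed edgeR's test (the largest adjusted p was 2.46e-13). Their size varied with the processing. Over 18 fits Slc2a2 in wild type ran from log2 6.05 to 7.41 against alpha and from 5.24 to 7.19 against delta cells. For G6pc2 these ranges were 4.98 to 6.30 and 5.28 to 7.23. Of 14223 genes, 64.2% differed between beta and alpha cells in wild type and 67.7% in knockout, and 55.7% and 58.1% between beta and delta cells.

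Hk1 went the other way and was higher in alpha and PP cells than in beta and delta cells. Alpha cells had 8.87 and 10.6 CPM in knockout and 7.95 and 9.64 CPM in wild type, and PP cells (at least 3% Ppy) 3.46 and 4.90 CPM in knockout and 6.27 and 6.96 CPM in wild type. Beta cells were 69.7-fold below alpha cells in knockout and 92.2-fold in wild type (edgeR adjusted p = 1.62e-11 and 7.33e-12). Delta cells had 2 and 4 Hk1 UMIs in knockout and 1 and 7 in wild type, so that beta and delta cells were both at the edge of detection. The highest Hk1 was in endothelial cells, with 76.6 and 82.8 CPM in knockout and 82.3 and 80.3 CPM in wild type.

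Slc2a1 was also highest in endothelial cells, with 65.0 and 49.7 CPM in knockout and 67.2 and 52.7 CPM in wild type; macrophages had 7.12 and 12.4 CPM in knockout and 11.2 and 10.2 CPM in wild type. In hormone cells it was between 1.44 and 4.93 CPM. Hk2 was highest in macrophages, at 77.6 and 119 CPM in knockout and 104 and 54.2 CPM in wild type, followed by endothelial cells at 3.48 and 8.28 CPM in knockout and 7.54 and 5.39 CPM in wild type. The libraries of a genotype differ more than the genotypes for Hk2 in macrophages. In alpha cells Hk2 had 3 and 11 UMIs in knockout and 0 and 0 in wild type, and in delta cells 2 and 4 in knockout and 0 and 3 in wild type. The 8 endothelial markers summed to 9.60 and 8.54 CPM in knockout and 3.30 and 3.95 CPM in wild type beta cells, and the 8 macrophage markers to 23.1 and 20.7 CPM and to 24.7 and 21.6 CPM; none of the 16 was at 0, and their part in the small Slc2a1, Hk1 and Hk2 counts of beta cells was not tested.

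Relative to the median gene no member passed edgeR's test in alpha, endothelial or macrophage cells. Of 4 tested in alpha cells 0 were called (by unadjusted p under 0.05, 1, Slc2a2), beside 17.7% of all genes, with Slc2a2 nearest at -0.97 (SE 0.370, adjusted p = 0.0903) and G6pc2 at -0.27 (SE 0.179, adjusted p = 0.334). In alpha cells G6pc2 was 7.79 and 6.20 CPM in knockout and 8.56 and 6.31 CPM in wild type. Endothelial cells had 1.16 and 0.828 CPM in knockout and 2.51 and 6.59 CPM in wild type. In wild type library 2 the alpha level of G6pc2 could thus not be told apart from background. Endothelial Slc2a1 and Hk1 were at -0.13 (SE 0.186) and -0.09 (SE 0.124), beside 0.956% of genes called, and macrophage Hk2 at 0.20 (SE 0.251), beside 0.391%. Scaled by cell number, edgeR called 3 members higher in knockout alpha cells, Slc2a1 at 0.87, G6pc2 at 0.50 and Hk1 at 0.67 (adjusted p = 0.0136, 0.0115 and 5.01e-04). On that scale the median gene of alpha cells was at 0.78, and 11267 of the 12769 genes tested there were called. Slc2a1 at 0.55 and Hk1 at 0.58 were also called by cell number in endothelial cells (edgeR adjusted p = 0.0212 and 0.00278), and Hk2 at 1.18 in macrophages (adjusted p = 0.00313). Knockout endothelial cells and macrophages held more UMIs per cell. Medians were 10461 and 9797.5 in knockout and 6865.5 and 6674.5 in wild type endothelial cells. In macrophages they were 17262 and 19137 in knockout and 10511.5 and 10660 in wild type.

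In delta cells 1 of 3 tested members was called, G6pc2, at -1.38 (SE 0.324, edgeR adjusted p = 0.0328), beside 6.68% of genes. It had 2.02 and 3.14 CPM in knockout and 6.11 and 5.92 CPM in wild type, on 11 and 14 knockout and 34 and 42 wild type UMIs. Endothelial cells had 1.16 and 0.828 CPM in knockout and 2.51 and 6.59 CPM in wild type, on 2 to 11 UMIs a library; the wild type delta level was above the endothelial level in wild type library 1 and below it in library 2. The call was lost without any 1 of the 4 libraries (adjusted p = 0.0672 to 0.136) and when sums were scaled by cell number (-0.71, adjusted p = 0.0748).

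PP cells, as classed here, were the exception in direction. They were cells outside the 3 hormone classes with at least 3% Ppy, so unlike alpha and delta cells they could hold 5 to 10% insulin. Insulin took 1.10% and 0.732% of PP cell UMIs in knockout and 0.712% and 0.565% in wild type. In PP cells G6pc2 was higher in knockout, with 126 and 41 UMIs or 17.4 and 10.6 CPM, against 11 and 25 UMIs or 3.29 and 4.84 CPM in wild type (log2 1.32, SE 0.299, edgeR adjusted p = 0.0178), beside 7.45% of genes called. Hk1 was lower there, at -1.19 (SE 0.328, edgeR adjusted p = 0.0422). The 10 beta cell markers without the hormone genes summed to 16939 and 12656 CPM in knockout and 4151 and 1923 CPM in wild type PP cells, and their part in the G6pc2 difference was not tested. Without knockout library 1 the G6pc2 change was 0.88 and not called (adjusted p = 0.252), and Hk1 lost its call without that library or without wild type library 2 (adjusted p = 0.272 and 0.161), by total UMIs (-0.72, adjusted p = 0.0879) and by cell number (-0.32, adjusted p = 0.382). These comparisons were added after the levels were seen.

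The change of genotype in beta cells was also tested directly against that in alpha and delta cells of the same libraries. Against alpha cells, 3 members differed, beside 26.6% of genes: G6pc2 by -1.38 (SE 0.164, edgeR adjusted p = 1.06e-05), Slc2a2 by -1.36 (SE 0.334, adjusted p = 0.00594) and Slc2a1 by -0.85 (SE 0.270, adjusted p = 0.0286). The Slc2a2 difference was not called without knockout library 1, at -0.89 (adjusted p = 0.404), nor by total UMIs, at -0.67 (adjusted p = 0.0736); its alpha side rests on 6 to 35 UMIs a library. For Slc2a1 the call was lost without knockout library 1 or without either wild type library (adjusted p = 0.289, 0.183 and 0.10), and by total UMIs, by cell number, by DESeq2 and without doublet removal (adjusted p = 0.617, 0.0707, 0.285 and 0.0936). Against delta cells none was called, beside 18.7% of genes, with Slc2a2 at -1.01 (SE 0.493, adjusted p = 0.186). G6pc2 was at -0.22 (SE 0.385, edgeR adjusted p = 0.756) and Slc2a1 at -0.08 (SE 0.307, edgeR adjusted p = 0.905). The fit thus did not separate their changes in beta cells from those in delta cells.

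**Figure D5:**
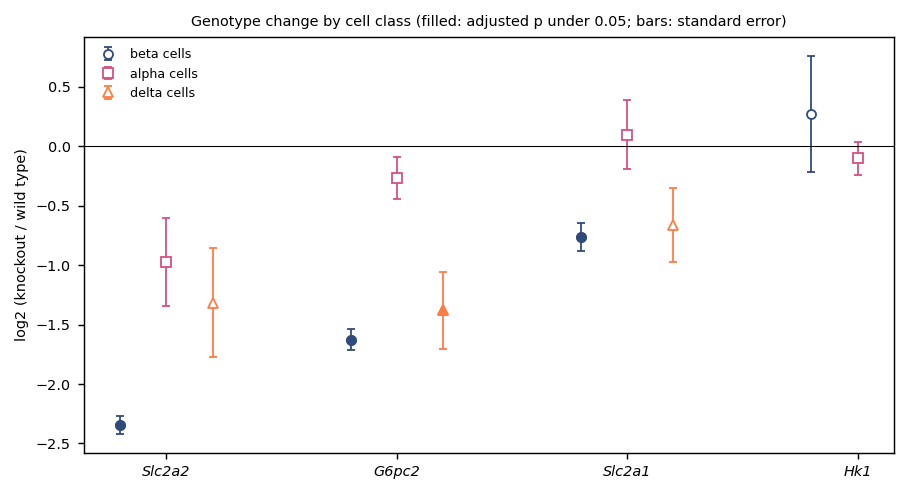
Log2 change of knockout over wild type relative to the median gene in beta, alpha and delta cells, with standard errors; filled symbols have an edgeR adjusted p under 0.05. Slc2a2 and G6pc2 are furthest below 0 in beta cells, at -2.34 and -1.63, while G6pc2 is at -1.38 in delta cells. Hk1 was too low to be tested in delta cells.

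Genes whose levels followed each member most closely over the 12 sums of beta, alpha and delta cells were taken by Pearson's r of log2(CPM + 1), among 4532 genes with a mean of at least 20 CPM. For Slc2a2 they were Prlr (r = 0.995), the prolactin receptor, Ucn3 (r = 0.994) and Prss53 (r = 0.992). Prlr had 84.6 and 80.7 CPM in knockout and 160 and 154 CPM in wild type beta cells, and Ucn3 had 33.4 and 35.8 CPM in knockout and 99.4 and 85.3 CPM in wild type. For G6pc2 they were Nkx6-1 (r = 0.988), Ero1lb (r = 0.980), an oxidase of the endoplasmic reticulum, and Ucn3 (r = 0.977). Hk1 went with Pappa2 (r = 0.989), Irx1 (r = 0.988), an alpha cell factor, and Rflna (r = 0.988). Slc2a1 went with Cd63 (r = 0.942), Chgb (r = 0.937) and Smap2 (r = 0.936), and Hk2, near 0 in all sums, with Msmo1, Cyp51 and Scd2 (r = 0.882, 0.804 and 0.794). The 12 sums come from 4 libraries and 3 classes and share their totals, so these values describe likeness and carry no test.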

How the data were processed

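The authors deposited UMI counts, a gene by cell matrix for each of 4 libraries with 19074 genes; per the submitters' processing notes, the authors used Cell Ranger 3.0.0, mm10 and Seurat 2.3.4. No deposited cell has fewer than 501 detected genes or over 9.96% mitochondrial UMIs. Doublets were scored per library by the Scrublet method (30 components, seed 1) and the top 0.8% per 1000 cells removed: 150 and 49 knockout and 283 and 273 wild type cells. Free RNA in empty droplets was not analysed here.

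UMIs were summed per class and library, with 10 and 3% hormone limits. PP cells had at least 3% Ppy and endothelial cells and macrophages at least 3 markers, all outside the 3 hormone classes. Genotypes were compared on all genes with edgeR 4.0.16 in R 4.3.3 (quasi-likelihood test, TMM, filterByExpr, Benjamini-Hochberg adjusted p under 0.05); class contrasts and differences of genotype effects used 1 fit of 12 sums with the library as a block. Standard errors are the log2 change over the root of F. Folds and log2 changes are knockout over wild type.

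One gene of the lists is not reported here. Members, lists and classes were chosen with earlier results of these data known. Named genes are the 5 members in every class and Sel1l as the targeted gene. The others are the 3 called members of smallest p of each list in beta cells and the 3 most alike genes. Mafa, Ucn3, Aldh1a3 and the overlapping gene were taken for splits and annotation after values were seen. Alternatives were RLE, library size only, cell number, insulin genes left out, DESeq2 1.42.0, limma-voom (limma 3.58.1), no filter, a mean of 20 counts, no doublet removal, mixed-hormone beta cells out, stricter class limits, cells with other markers out, cells thinned to 5000 UMIs, each library left out and a block for the replicate number. The fits were tested on simulated data. Coordinates are from GENCODE vM21 (GRCm38). Intervals cover counting error only. Python 3.11.15 was used.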

Additional observations from a re-analysis of the deposited data

Results flagged for a closer look

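The genotype effect in beta cells differed from that in alpha cells for 3 members, by the test of the difference itself: Slc2a2 by -1.36, Slc2a1 by -0.85 and G6pc2 by -1.38 on the log2 scale. In that test 26.6% of all genes were called. Against delta cells no member was called by the same kind of test, with G6pc2 at -0.22. The Slc2a2 levels of alpha cells could not be told apart from background. For G6pc2 this held in wild type library 2, with 6.31 CPM in alpha and 6.59 CPM in endothelial cells. The Slc2a2 call was lost without knockout library 1 (edgeR adjusted p = 0.404) and by library size (adjusted p = 0.0736). The Slc2a1 call was lost without knockout library 1 (adjusted p = 0.289), without either wild type library (adjusted p = 0.183 and 0.10), by library size, by cell number, by DESeq2 and without doublet removal. The G6pc2 difference was called without any 1 of the 4 libraries (adjusted p at most 0.00514). G6pc2 was higher in knockout PP cells (log2 change 1.32), with each knockout library above each wild type library, and lower in knockout beta cells. The difference between these classes was not tested. Without knockout library 1 the change in PP cells was 0.88 and was not called. Beta cell markers were also higher in knockout PP cells, and their part was not tested.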

How the results depend on the processing

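Slc2a2 and G6pc2 stayed lower and called in knockout beta cells in all 19 fits, from -2.45 to -1.42 and from -1.70 to -0.70. Slc2a1 turned to 0.15 by library size and by cell number. The sign of other values also turned with scaling. By library size Slc2a1 of beta against delta cells in wild type was at -1.24. Relative to the median gene it was at 0.14 (edgeR adjusted p = 0.561). By cell number G6pc2 and Hk1 were at 0.50 and 0.67 in alpha cells, and Slc2a1 and Hk1 at 0.55 and 0.58 in endothelial cells. Hk1 of beta against delta cells in wild type was at -2.25 relative to the median gene (edgeR adjusted p = 0.0143). In thinned cells it was at 1.75 and not called (edgeR adjusted p = 0.597).

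Counts of called genes were 6196 in beta, 2256 in alpha and 779 in delta cells. By library size they were 13004, 3810 and 1188, by cell number 12975, 11267 and 8852, and in thinned cells 3291, 445 and 474. DESeq2 gave 924 in alpha and 394 in delta cells, and no filter 1637 in delta cells. The differences of effects, 3782 against alpha and 2664 against delta cells, were 9539 and 9015 by library size, 1918 and 1597 by DESeq2 and 1612 and 1276 in thinned cells. Class contrasts, 9622 and 8268 in knockout (alpha, delta) and 9136 and 7922 in wild type, were 5970 and 4889 in knockout and 5966 and 5249 in wild type with thinned cells, and 12550 for wild type beta against delta cells by library size. Without 1 library the counts ran from 3799 to 6159 in beta, 1293 to 1895 in alpha and 165 to 452 in delta cells, from 2435 to 2850 against alpha and from 1613 to 1802 against delta cells; a lone library is then assumed to vary like the others. Differences between libraries 1 and 2, gene by gene, were compared between wild type and knockout. They correlated at 0.0629, 0.0719 and -0.0851 in beta, alpha and delta cells, which shows no pairing by number but cannot exclude it. With the replicate number as a block 6421, 2891 and 1314 genes were called. Of the most alike genes, Spearman's rank kept 2 of 3 for G6pc2 and 0 of 3 for each other member, and a minimum of 5 CPM kept 3 for Slc2a1, 2 for Slc2a2, 1 for Hk2 and 0 for G6pc2 and Hk1. Few UMIs limit Hk1 and Hk2 in beta and delta cells; the cause of these shifts was not tested.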
